A study of Mus musculus with 2 samples.

Results

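The acute phase genes described here are the serum amyloid A genes Saa1, Saa2 and Saa3, the lipocalin gene Lcn2, the haptoglobin gene Hp and the pentraxin gene Ptx3. They were found as the non-control probes whose RefSeq accession belongs to 1 of the 6 genes, which gave 6 probes, 1 per gene, each printed as 1 spot per array. Of the 20660 named genes on the array, 12875 were measured, meaning well above background on both arrays, and 5 of the 6 acute phase genes were among them. RNA came from bone marrow-derived macrophages of calpain-6-deficient mice (Capn6-Ko) and of calpain-6 wild-type mice (Capn6-Wt), with 1 array per group. Both groups were male femoral marrow cells grown in medium with 10% serum, 50 ng/mL of M-CSF, which turns marrow cells into macrophages, and 10 ng/mL of the inflammatory cytokine TNF-α. The labels give day 3 of culture in one place and day 4 in another. The design text speaks of 4 mice, pooled, without saying whether that is per group, and the sources used here do not say how the calpain-6 gene was disrupted.

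Acute phase proteins are secreted in large amounts during infection and injury. In the liver their genes are switched on by IL-6, IL-1 and TNF through the transcription factors STAT3, C/EBP and NF-kB. Macrophages, fibroblasts, adipocytes and neutrophils make several of them outside the liver, and in the mouse Saa3 is the serum amyloid A gene best known from macrophages and adipose tissue, while Saa1 and Saa2 are the main liver forms. Saa1, Saa2, Saa3 and Saa4 lie next to each other on chromosome 7, in the order Saa3, Saa4, Saa1, Saa2 in the RefSeq table of GRCm38.p6. Saa1 and Saa2 are close copies, and that table lists each of these symbols as an older name of the other, so the names are used here as RefSeq assigns the probes' accessions, NM_009117 to Saa1 and NM_011314 to Saa2.

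The stretches before the start sites of the 3 serum amyloid A members are shown because the Saa1 probe was measured and the Saa2 probe was not, although the genes are close copies. Whether the stretches bear on this difference between probes was not tested. They come from a table of RefSeq promoters, in which 5 of the 6 genes matched. That of Hp was not used here. Each run is the 250 bases before the annotated start, 5′ to 3′ on the strand of the gene. Capitals mark matches to TTNNGNAA, a loose form of the C/EBP binding motif, on either strand.

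Saa3 (GRCm38.p6, chr7:46715677-46715926, reverse strand): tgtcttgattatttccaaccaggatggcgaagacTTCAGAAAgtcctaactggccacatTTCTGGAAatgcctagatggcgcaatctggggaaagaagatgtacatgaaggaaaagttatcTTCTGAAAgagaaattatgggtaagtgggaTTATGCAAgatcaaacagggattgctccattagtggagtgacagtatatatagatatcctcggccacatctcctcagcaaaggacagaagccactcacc

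Saa1 (GRCm38.p6, chr7:46742981-46743230, reverse strand): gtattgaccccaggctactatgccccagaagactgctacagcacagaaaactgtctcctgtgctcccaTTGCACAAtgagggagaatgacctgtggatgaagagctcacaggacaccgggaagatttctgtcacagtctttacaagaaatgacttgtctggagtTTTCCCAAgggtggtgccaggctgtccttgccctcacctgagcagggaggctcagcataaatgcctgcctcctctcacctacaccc

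Saa2 (GRCm38.p6, chr7:46751583-46751832, forward strand): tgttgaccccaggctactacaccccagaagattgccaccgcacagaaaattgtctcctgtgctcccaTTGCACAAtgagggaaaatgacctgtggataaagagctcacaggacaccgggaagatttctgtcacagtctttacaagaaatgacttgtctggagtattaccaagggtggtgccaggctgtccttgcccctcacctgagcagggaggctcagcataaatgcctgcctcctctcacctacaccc

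In a global alignment 238 of 251 columns (94.8%) were identical between the stretches of Saa1 and Saa2, with 11 mismatches and 2 gap columns. Between Saa1 and Saa3 139 of 284 columns (48.9%) were identical, and between Lcn2 and Ptx3, which are unrelated genes, 130 of 290 (44.8%). Saa3 had 4 C/EBP matches, at -216, -191, -129 and -99 from the start, counted at the first base of the match. Saa1 had 2, at -182 and -86. Saa2 had 1, at -183. Lcn2 had 1 at -216 and Ptx3 1 at -57. All 5 stretches held a match, where 36.8% of 32851 such stretches in the table do. A match is a run of letters and not a site. None of the 5 stretches held GGGRNNYYCC, an NF-kB motif (7.25% of all stretches), TTCNNNGAA, a STAT motif (7.02%), or TATAAA (12.4%), on either strand. Here R is A or G, Y is C or T and N is any base. Only exact letters were searched, so this says nothing about binding inside or outside this window.

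**Figure D1:**
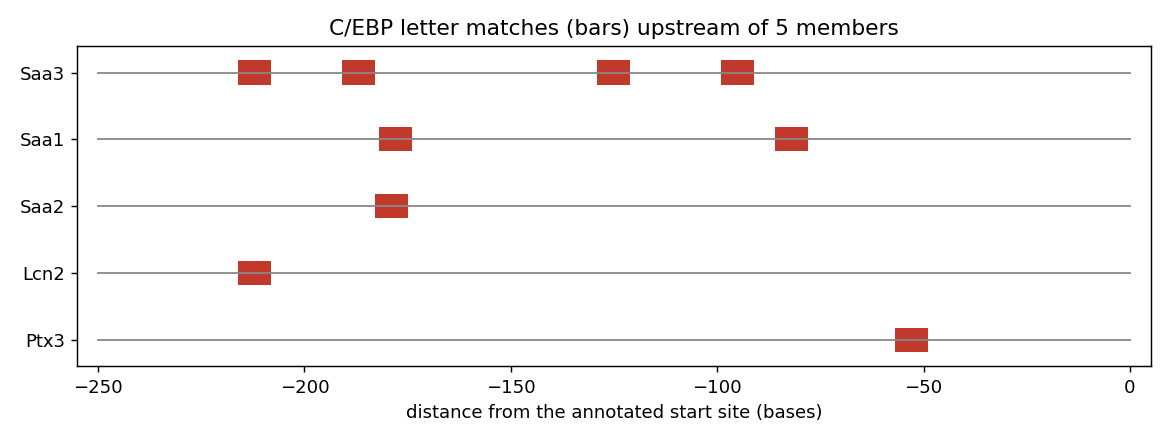
Positions of C/EBP letter matches (bars) in the 250 bases before the annotated start site of 5 members, as distance from the start in bases. Saa3 has 4 matches, Saa1 has 2, and Saa2, Lcn2 and Ptx3 have 1 each.

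Well above background were 31304 of 59305 non-control spots in Capn6-Ko and 30656 in Capn6-Wt, and the arrays had 75th percentiles of 372 in Capn6-Ko and 377 in Capn6-Wt. The single Capn6 probe read 8.65 on the Capn6-Ko array and 3.93 on the Capn6-Wt array and did not clear background on either array, so it does not check the labels. Of 18 macrophage markers 17 have a probe that matched a gene name, and all 17 were measured. Among them were Csf1r (131530 in Capn6-Ko, 115464 in Capn6-Wt), Adgre1 (27416 and 24571) and Lyz2 (164586 and 167573). Of 24 stromal fibroblast markers 23 were measured too, so this count does not single out the labelled cell type. With 1 array per group no test between genotypes can be made, no p-value is given, and every difference describes 2 RNA pools. In such a culture more RNA per cell and more cells of a type cannot be told apart.

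Capn6-Ko was set against Capn6-Wt, which is 1 RNA pool labelled calpain-6-deficient against 1 labelled wild-type. The members did not move as a block. Saa3 was higher in Capn6-Ko. Saa1 and Hp were higher by less, by 1.18 and 0.74 times the error that the scanner software gives. Lcn2 and Ptx3 were lower by amounts within the spot error, and Saa2 was not detected above background. Differences are log2 values, Capn6-Ko minus Capn6-Wt, after scaling each array to its own 75th percentile. The ± is the SD expected of the difference from the spread of repeated spots at that level, and covers spotting and scanning only. For the members it is the error of 1 spot per array, and for genes with more spots or probes it is the smaller error of their mean. The scanner software gives a second error for each spot, which is wider for all measured members but Ptx3. The members were proposed with this contrast in view, so their values are a description.

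Saa3 encodes a serum amyloid A protein, a small apolipoprotein of high-density lipoprotein that also attracts leukocytes. Its probe (A_55_P1953169) had a processed signal of 1452 on the Capn6-Ko array and 1075 on the Capn6-Wt array. The Capn6-Ko spot was the higher one also before the software's background step, with median pixel intensities of 1236 in Capn6-Ko and 974.5 in Capn6-Wt over local backgrounds of 27 and 26. The difference was 0.45 ± 0.077, or 1.37-fold, which is 5.91 times the spot error. By the software's own estimate the error was 0.20, and the difference 2.22 times that. Of 12875 measured genes 131 (1.02%) were at least as high as Saa3, and of 1664 genes within 0.5 log2 units of its mean level 21 (1.26%) were as far from 0 in either direction. Without the software's detrending, from median pixel intensity minus local background, the difference was 0.37.

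Saa1 encodes the serum amyloid A isoform that circulates in plasma during the acute phase. Its probe (A_52_P318673) read 499 on the Capn6-Ko array and 427.5 on the Capn6-Wt array. Capn6-Ko was again the higher array, by 0.24 ± 0.094, or 1.18-fold. The difference was 1.18 times the software error of 0.20. Of 1569 genes of like level, 131 (8.35%) differed by at least as much. From median pixel intensity minus local background, scaled in the same way as for Saa3, the difference was 0.17. The members' order within the serum amyloid A family was thus Saa3 above Saa1, but the difference between their values, 0.45 and 0.24, was not tested and is close to the software error of either.

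Saa2, the other plasma isoform, had signals of 3.53 on the Capn6-Ko array and 7.22 on the Capn6-Wt array. Neither spot was well above background, where the lowest signals so called were 14.0 and 16.6, so no fold is given. Saa4, the constitutively expressed serum amyloid A gene, which is not a member, was also not well above background, at 2.94 in Capn6-Ko and 3.42 in Capn6-Wt. The array thus detected 2 of the 4 genes of the cluster. Probe sequences were not used here, so how far the Saa1 probe also binds Saa2 transcripts, which are near-copies, was not tested.

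Of the 4 nearest protein-coding genes on each side of the cluster, 5 were measured, and these differed by less than Saa3. Saal1, next to Saa3, was at 0.061 ± 0.11, and Sergef beyond it at -0.027 ± 0.094. On the other side Hps5 was at 0.12 ± 0.077, Gtf2h1, a subunit of a general transcription factor, at -0.22 ± 0.083 and the lactate dehydrogenase gene Ldha at -0.020 ± 0.047. Kcnc1, Tph1 and Ldhc were not measured, and the highest signal among the 3 Kcnc1 probes was 29.6 in Capn6-Ko and 20.1 in Capn6-Wt. These genes were chosen by position, after the values of the members were known.

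Hp encodes haptoglobin, the plasma protein that binds free haemoglobin. Its probe (A_55_P2048607) read 971 on the Capn6-Ko array and 885 on the Capn6-Wt array. The difference of 0.15 ± 0.077, or 1.11-fold, was 1.97 times the spot error and 0.74 times the software error of 0.20. Differences of this size were common, with 254 of 1686 genes of like level (15.1%) at least as far from 0. The receptor gene for the haptoglobin and haemoglobin complex, Cd163, was not well above background on either array.

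Lcn2 encodes lipocalin 2, which withholds iron from bacteria by binding their siderophores. Its probe (A_55_P2070869) read 123 on the Capn6-Ko array and 136 on the Capn6-Wt array. The difference was -0.13 ± 0.17, smaller than the spot error, and 602 of 1349 genes of like level (44.6%) were at least as far from 0. The lipocalin 2 receptor gene Slc22a17 stood at 0.20 ± 0.11, with signals of 215 in Capn6-Ko and 189 in Capn6-Wt.

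Ptx3 encodes pentraxin 3, a soluble pattern recognition protein that marks microbes for uptake and activates complement. Its probe (A_51_P374726) was dim and read 43.1 on the Capn6-Ko array and 52.3 on the Capn6-Wt array. The difference of -0.26 ± 0.31, or 1.20-fold lower, lay within the spot error at this level. With normexp background correction it was -0.13. Without that correction 399 of 1102 genes of like level (36.2%) were at least as far from 0.

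**Figure D2:**
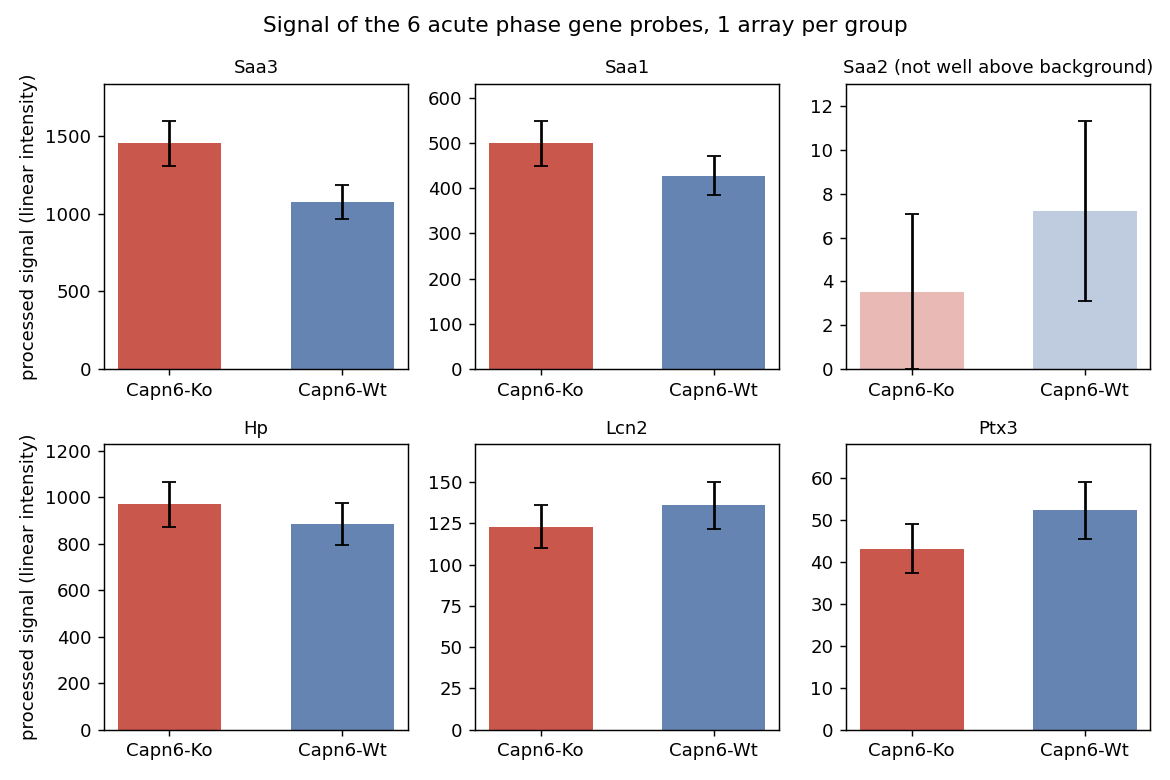
Processed signal (linear intensity) of each member's probe on the Capn6-Ko and the Capn6-Wt array, with the scanner software's error of the spot as the error bar; each panel has its own scale, and levels of different probes are not comparable. Saa3 is the gene whose bars stand furthest apart relative to their errors, and both Saa2 bars lie below the lowest signal well above background.

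A difference of 0.32 on the log2 scale or more was used as the size of a call. By this size 1 of the 5 measured members, Saa3, was higher in Capn6-Ko and 0 were lower, where 2.64% of all 12875 measured genes were higher and 5.52% lower. No measured member reached 1.5-fold, a size that 1.58% of all measured genes reached in either direction. By sign alone 3 members were higher and 2 lower, where 47.8% and 52.2% of all measured genes were. The median difference was 0.15 over the 5 measured members and -0.0056 over all measured genes. Because the members were chosen with this contrast known, nothing is read from these shares.

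**Figure D3:**
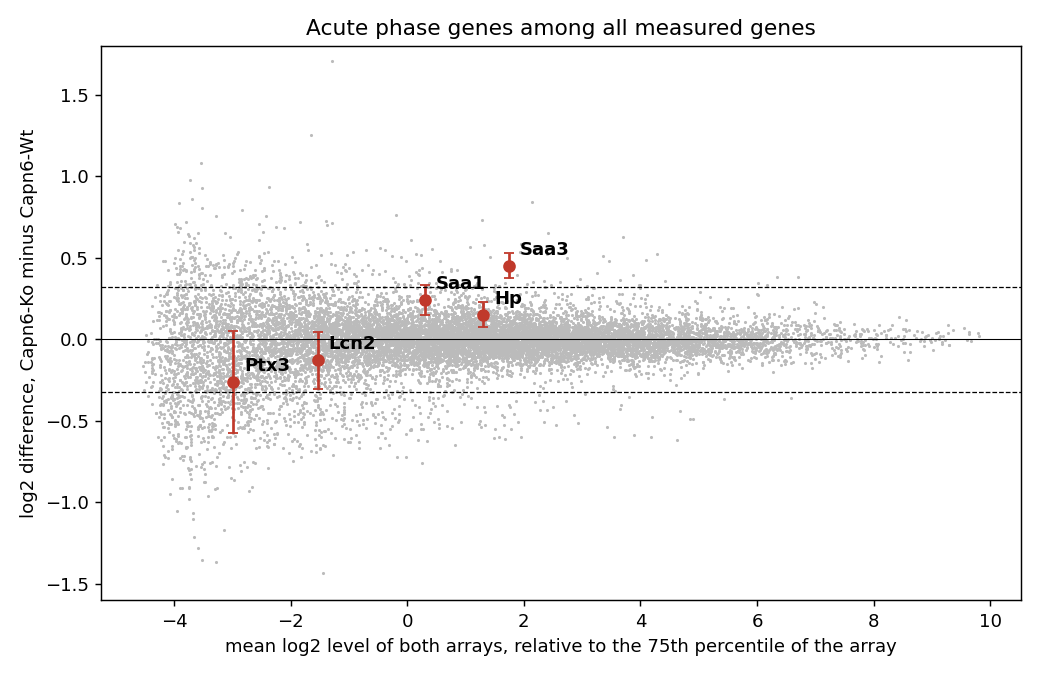
Log2 difference, Capn6-Ko minus Capn6-Wt, against mean log2 level relative to the array's 75th percentile, for all measured genes (grey points) and for the 5 measured members (red points, error bars are the spot error). Dashed lines mark 0.32 and -0.32; Saa3 at 0.45 is the only member beyond them, and the grey cloud widens toward the dim end, where Lcn2 and Ptx3 lie.

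Most other acute phase genes were not measured, and the median of those that were lay near 0. Of 36 listed, 34 had a named probe and 14 were measured. Of these 7 were higher and 7 lower, with a median of -0.0053 and a range of -0.21 to 0.34. The list mixes genes that rise in the acute phase with some that fall, with Trf, at 0.078, among the 14. Cfb, complement factor B, was the gene past 0.32, at 0.34 ± 0.17, with signals of 58.5 in Capn6-Ko and 46.9 in Capn6-Wt. None of the 14 was lower by that size. Over all measured genes, the background of this and the following lists, 47.8% were higher and 52.2% lower. By 0.32 or more 2.64% were higher and 5.52% lower. The liver-type genes Crp, Apcs, Fgb, Fgg, Hpx, Hamp, Itih3 and Itih4 were not well above background on either array. Complement C3 was at 0.16 ± 0.041, beyond its spot error, with its probes at 0.12 and 0.19. The orosomucoid genes Orm1 and Orm2 were at 0.075 ± 0.11 and -0.034 ± 0.11, and ceruloplasmin, Cp, at 0.00062 ± 0.31. The metallothionein genes Mt1 and Mt2 were at -0.011 ± 0.081 and -0.18 ± 0.083. Of the hepatocyte markers 2 of 13 were measured, Apoa2 and Tat, and Alb, Ttr, Apoa1 and Hnf4a were not well above background in either culture.

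Among the cytokines, receptors and transcription factors that induce acute phase genes, 28 of 32 were measured, with 16 higher and 12 lower and a median of 0.018. Il1b, the gene of interleukin-1β, was past 0.32 upwards. Its probe gave 9 usable spots, with a lowest, median and highest signal of 30.4, 38.0 and 43.3 on the Capn6-Ko array, against 21.3, 24.4 and 29.7 on the Capn6-Wt array. In these unscaled signals the spots of the arrays did not overlap. How many other probes with repeated spots separate in this way was not counted. The Il1b difference was 0.62 ± 0.10, or 1.54-fold, at a low signal. Spots of 1 array share 1 RNA pool and are not replicates of a genotype.

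In the other direction Il11, an IL-6 family cytokine, was at -0.63 ± 0.11, with signals of 151 in Capn6-Ko and 237 in Capn6-Wt. Osmr, a receptor subunit for oncostatin M, was at -0.43 ± 0.11, with 151 in Capn6-Ko and 207 in Capn6-Wt. Both genes are known from fibroblasts and other stromal cells, and stromal markers, given next, moved the same way; their part in these values was not tested. Tnf, read from 10 spots, had a median spot of 786 in Capn6-Ko and 749 in Capn6-Wt and a difference of 0.11 ± 0.030. Its spots ran from 776 to 820 in Capn6-Ko and from 690 to 786 in Capn6-Wt, so that the arrays overlapped. Il6 was not well above background on either array. The transcription factor genes stood at 0.18 ± 0.074 for Cebpd, -0.072 ± 0.081 for Cebpb, -0.11 ± 0.088 for Stat3 and 0.15 ± 0.17 for Nfkbiz, an atypical IkB protein that co-activates Lcn2. Socs3, the feedback inhibitor of IL-6 signalling, was at -0.24 ± 0.094. None of these 5 reached 0.32.

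Of 27 genes for receptors and ligands of the member proteins, 22 were measured, 15 higher and 7 lower, with a median of 0.048. Fpr1, a formyl peptide receptor, was past 0.32, at 0.43 ± 0.17, with signals of 71.0 in Capn6-Ko and 53.5 in Capn6-Wt. Fpr2, the formyl peptide receptor that serum amyloid A binds, was dim, at 0.24 ± 0.31. The Toll-like receptor genes Tlr2 and Tlr4 were at 0.053 ± 0.023 and 0.13 ± 0.054.

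Markers of other cells that can carry these transcripts differed in part between the arrays. Of 24 stromal fibroblast markers 23 were measured, and 15 were lower in Capn6-Ko by 0.32 or more, none higher by that size, with a median of -0.48 and a range of -0.61 to 0.28. The 6 furthest were Tagln, Col1a2, Acta2, Loxl1, Col5a1 and Sparc, from -0.61 to -0.54. Of all measured genes 5.52% were lower by 0.32 or more and 2.64% higher. The brightest probes of the stromal list summed to 68518 in Capn6-Ko and 95330 in Capn6-Wt. Fibroblasts can express Saa3, Lcn2 and Ptx3. Saa3 was higher while most of these markers were lower. Lcn2 (-0.13 ± 0.17) and Ptx3 (-0.26 ± 0.31) did not differ beyond the spot error. The part of stromal RNA in these values was not tested.

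Of the 17 measured macrophage markers 13 were higher, 5 of them by 0.32 or more, and none was lower by that size, with a median of 0.20. The 5 were Cx3cr1 (0.59 ± 0.060), Adgre4 (0.56 ± 0.31), C5ar1 (0.39 ± 0.077), Cd14 (0.36 ± 0.074) and Aif1 (0.36 ± 0.081). Their brightest probes summed to 553156 in Capn6-Ko and 527825 in Capn6-Wt, for the whole list. The 4 lower markers were Mrc1 (-0.045 ± 0.074), Mertk (-0.034 ± 0.083), Laptm5 (-0.025 ± 0.057) and Lyz2 (-0.0078 ± 0.081), each within the spot error. Saa3, at 0.45, was higher, as were 13 of the 17 markers. The part of macrophage RNA in its value was not tested. Of all measured genes 47.8% were higher, and 2.64% were higher by 0.32 or more.

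Neutrophils store lipocalin 2, haptoglobin and pentraxin 3 in granules. Of 22 neutrophil markers 15 were measured, 5 higher and 10 lower, with a median of -0.016. Past 0.32 were Chil3 (0.48 ± 0.074), which macrophages also express, and the lactoferrin gene Ltf (0.33 ± 0.17), with signals of 118 in Capn6-Ko and 95.2 in Capn6-Wt. The granule gene Camp was at -0.066, Ngp at -0.13, S100a8 at -0.016 and S100a9 at -0.049. Retnlg and Cd177 were not well above background on either array. The list's brightest probes summed to 235675 in Capn6-Ko and 242088 in Capn6-Wt, of which Lyz2, shared with the macrophage list, gave 164586 and 167573.

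Adipocyte markers had a median of 0.0014 over 6 of 10 measured genes, with complement factor D, Cfd, at 0.34 ± 0.31 and the defining genes Adipoq, Lep and Plin1 not well above background on either array. Epithelial markers had 1 of 10 measured, Esrp1 at 0.029, and Epcam, Cdh1, Krt8 and Krt18 were not well above background on either array.

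**Figure D4:**
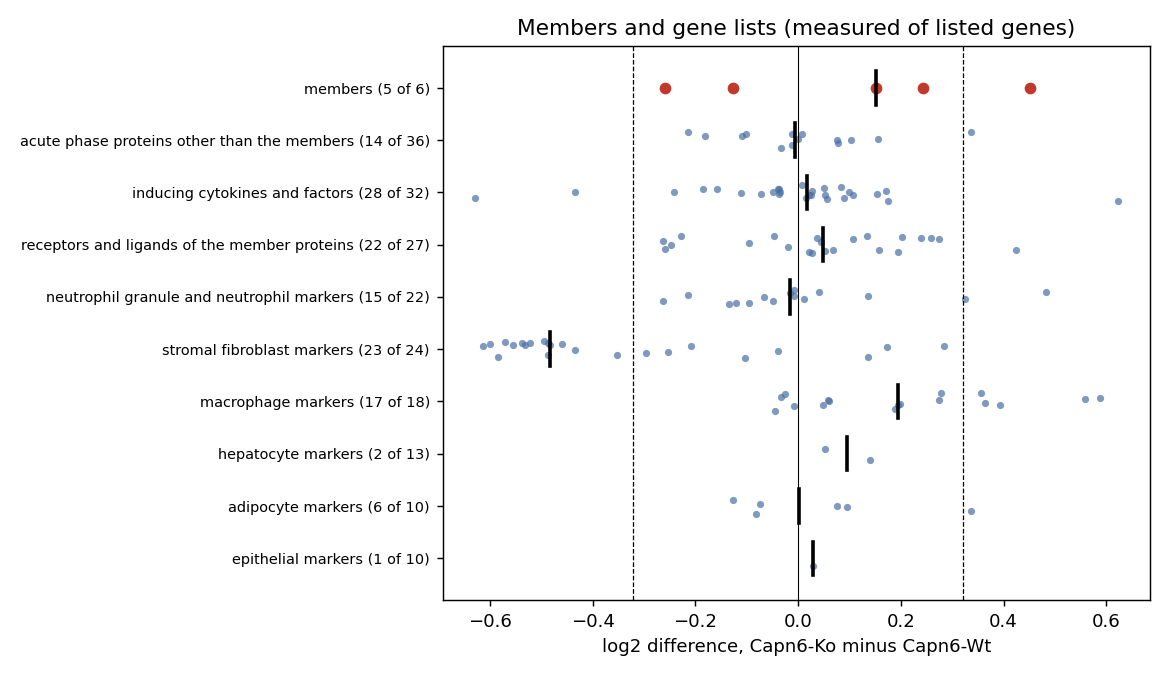
Log2 difference, Capn6-Ko minus Capn6-Wt, of each measured gene (points) in the members and in 9 gene lists, with the list's median as a black bar, dashed lines at 0.32 and -0.32 and the measured and listed numbers of genes in the row labels. The stromal markers lie mostly left of the lower line around -0.48, the macrophage markers mostly right of 0, and the 5 members spread from -0.26 to 0.45.

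The Saa3 value was as large against its surroundings on the array. Measured spots within 10 rows and 10 columns of the Saa3 spot, 168 in number, had a median difference of -0.011, so that Saa3 stood at 0.46 against them. For Saa1 the 208 surrounding spots had a median difference of 0.030, and Saa1 stood at 0.21 against them. Hp stood at 0.17, Lcn2 at -0.10 and Ptx3 at -0.24 in the same way. This comparison was chosen after the data were seen.

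**Figure D5:**
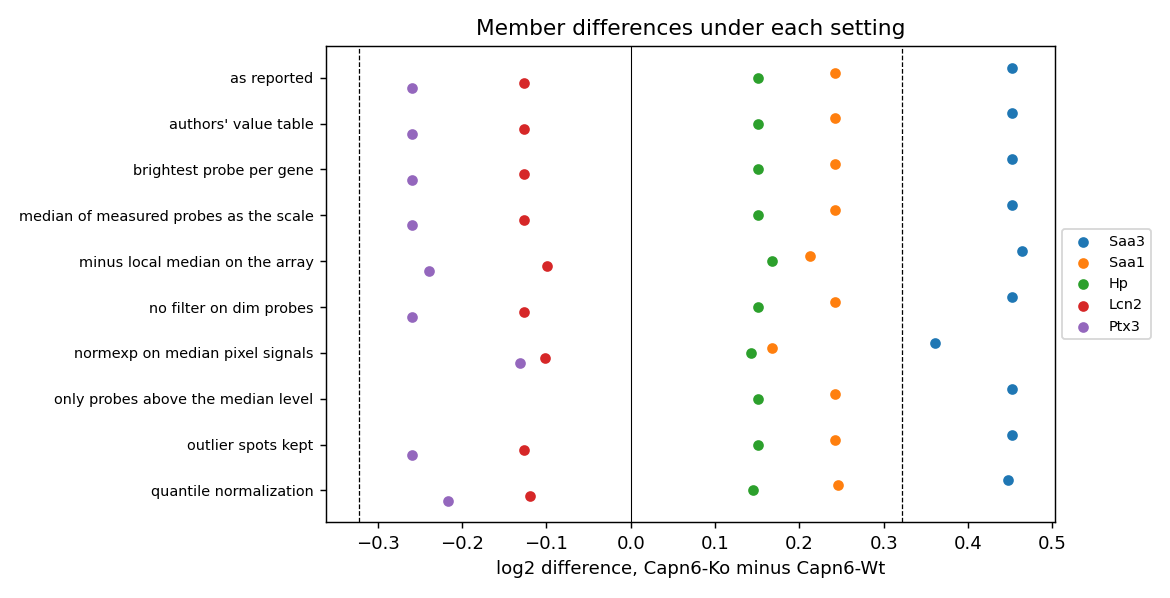
Log2 difference, Capn6-Ko minus Capn6-Wt, of each measured member (coloured points) under each processing setting (rows), with dashed lines at 0.32 and -0.32. Saa3 lies beyond the upper line in every row, from 0.361 to 0.464, and the other 4 stay between the lines. The rows for filters, probe rule and outlier spots repeat the reported values, since each member has 1 probe and 1 spot per array. The row for the authors' table repeats them too, since that table is scaled nearly as in the main setting. Lcn2 and Ptx3 have no point where only brighter probes were kept.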

How the data were processed

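Total RNA of pooled mice was labelled with Cy3 and hybridised to 1 Agilent array per group. The deposited scanner files hold each spot's intensity on a linear scale, made with Agilent Feature Extraction 10.10.1.1 on a design annotated on mm9, per the file headers. The processed signal used here is background-subtracted and detrended within the array by that software, and arrays were not scaled to each other. Per the file headers the arrays shared 1 slide. The authors' deposited value table is also a linear intensity, and its 59305 rows equalled the processed signals multiplied by 2.42 in Capn6-Ko and by 2.39 in Capn6-Wt (column medians 50.7 and 53.0). It is uncentred and holds single-channel values, so it has no direction. Multiplied by these factors, the 75th percentiles of 372 in Capn6-Ko and 377 in Capn6-Wt come to nearly the same value. The authors' table thus nearly repeats the main scaling and is not a separate check of it, with Saa3 at 0.452 in both. The sources used here do not say how these factors were chosen.

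Control spots and outlier spots (136 on the Capn6-Ko and 161 on the Capn6-Wt array) were left out, log2 signals were set relative to each array's 75th percentile, spots of a probe were averaged, and a probe was measured when most of its spots passed the software's background call on each array. No spot was saturated. Of 55678 probes 27232 matched a gene in the RefSeq table of GRCm38.p6 and the others stayed unnamed. A gene is the mean of its measured probes. The spot error came from 263 probes with at least 5 spots, in 8 level bins. The number of arrays limits the precision.

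The members and all lists were chosen with earlier results of these data known. Named genes are the members, list genes past 0.32 (log2) whose probes share a sign, at most 6 per direction, and fixed receptors and regulators. Others illustrate a list, and no gene of like pattern is named, since 2 arrays give 1 difference per gene. The sum of a list takes its brightest probe per gene. Alternatives were the scale, quantile normalization, normexp (offset 50), the authors' table, the filters, the probe rule and outlier spots. The files used have no mean pixel column, so normexp used the median pixel signal. The steps were tested on simulated data (Python 3.11.15, pandas 2.3.3, numpy 2.4.6). R 4.3.3 with limma 3.58.1 gave the normalizations.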

Additional observations from a re-analysis of the deposited data

How the results depend on the processing

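Saa3, Saa1 and Hp kept a higher value in Capn6-Ko, and Lcn2 and Ptx3 a lower one, under every alternative that gave a value. Saa3 ran from 0.361 with normexp to 0.464, Saa1 from 0.167 to 0.246, Hp from 0.143 to 0.167, Lcn2 from -0.127 to -0.0997 and Ptx3 from -0.259 to -0.131. Among the settings that could move it, Saa3 was at 0.447 with quantile normalization, 0.361 with normexp and 0.464 against its surroundings on the array. It stayed past 0.32 in these, and 0 members were past 1.5-fold or 2-fold. Lcn2 and Ptx3 lie below the median level and have no value with brighter probes only. Without a filter on dim probes the median of the other acute phase genes was -0.114 that of the hepatocyte markers -0.118 and that of the epithelial markers -0.129, against 0.029 for the 1 measured epithelial gene, where all genes had -0.044. With brighter probes only the adipocyte markers had a median of -0.0734. The mean of the inducing genes was -0.00972. The stromal list had -0.435 with the brightest probe per gene, -0.392 with normexp and a mean of -0.349. The cause of these shifts was not tested. Each member rests on 1 spot per array, and Ptx3 and Lcn2 are dim enough that a difference of their size is not detectable beyond the spot error. No paired analysis was possible because each group has 1 array.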
